A study of Mus musculus with 11 samples.

Results

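Globin genes and a small set of genes specific to the red cell lineage were followed in adrenocortical cells that had been sorted by fluorescence from the adrenals of mouse fetuses. The 9 genes were the adult globins Hba-a1 and Hbb-b1, the embryonic globins Hba-x, Hbb-y and Hbb-bh1, the haem and iron genes Alas2 and Slc25a37, the membrane gene Slc4a1 and the transcription factor gene Klf1. They were taken by name, through the RefSeq accession that the arrays give for each probe. They had 14 of the 41174 probes on the array and stood among 17427 named genes. Of the 9 genes, 8 had a probe well above background on 4 or more of 11 arrays and were tested among 20741 genes and unnamed probes, while Hba-x did not and is described only.

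The study compared 4 Star-/- mice with 7 wild-type (Star+/+) mice, all labelled E17.5-18.5, with the RNA of each mouse on an array of its own. Star encodes the protein that brings cholesterol into mitochondria for steroid synthesis. Cells positive for eGFP were taken by flow cytometry from dissociated adrenal glands, and the sources used here do not name the promoter behind the reporter. The exact age of each embryo within that span is not given either. The labels give male for the 4 knockout mice, and 3 males and 4 females for the wild type. Slide 1 held knockout arrays 1 and 2 and wild-type arrays 1 and 2. Slide 2 held knockout arrays 3 and 4 and wild-type array 3, and slide 3 held wild-type arrays 4 to 7 alone. All mice on slide 1 were male. On slide 2 the knockout mice were male and the wild-type mouse was female, so genotype and sex cannot be told apart there.

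Haemoglobin is a tetramer of α-type and β-type globin chains, each holding a haem group. In the mouse embryo the first red cells, made in the yolk sac, carry embryonic chains from Hba-x (ζ-globin), Hbb-y (εy-globin) and Hbb-bh1 (βh1-globin). The fetal liver then releases red cells with adult chains, and these gradually replace the first wave in the blood. Reticulocytes and the nucleated cells of the first wave still contain globin mRNA, so blood in a dissociated organ can bring this RNA into a sample. The adrenal cortex itself is not known as a site of red cell formation.

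The promoters of an embryonic and an adult gene of each globin cluster are shown because the comparison of embryonic with adult globin is the contrast on which most of the results turn. Each line gives 300 bases 5′ to 3′ on the strand of the gene, from 250 before its start to 50 after it, credited to RefSeq with the build GRCm38.p6. Hbb-y lies at chr7:103853158-103853457 and Hbb-bt, the name that RefSeq table gives to the accession of the Hbb-b1 probes, at chr7:103813874-103814173, both on the minus strand. Hba-x lies at chr11:32276350-32276649 and Hba-a1 at chr11:32283422-32283721, both on the plus strand. Capitals mark 4 kinds of words found on either strand. These are TATAA (the TATA box), the CCAAT box, the GATA word AGATAA, in which the first letter may also be T and the last G, and the word CCNCNCCC.
Hbb-y: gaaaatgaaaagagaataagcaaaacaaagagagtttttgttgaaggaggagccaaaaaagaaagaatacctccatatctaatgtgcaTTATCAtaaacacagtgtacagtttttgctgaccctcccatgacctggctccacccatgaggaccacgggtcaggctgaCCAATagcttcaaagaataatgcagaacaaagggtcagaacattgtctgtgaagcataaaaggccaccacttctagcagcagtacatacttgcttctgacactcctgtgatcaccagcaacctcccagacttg
Hbb-bt: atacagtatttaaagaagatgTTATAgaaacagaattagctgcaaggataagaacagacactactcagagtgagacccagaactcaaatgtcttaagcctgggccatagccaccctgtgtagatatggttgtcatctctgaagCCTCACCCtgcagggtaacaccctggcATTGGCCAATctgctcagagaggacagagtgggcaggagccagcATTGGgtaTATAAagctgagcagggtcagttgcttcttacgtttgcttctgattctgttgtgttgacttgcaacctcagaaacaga
Hba-x: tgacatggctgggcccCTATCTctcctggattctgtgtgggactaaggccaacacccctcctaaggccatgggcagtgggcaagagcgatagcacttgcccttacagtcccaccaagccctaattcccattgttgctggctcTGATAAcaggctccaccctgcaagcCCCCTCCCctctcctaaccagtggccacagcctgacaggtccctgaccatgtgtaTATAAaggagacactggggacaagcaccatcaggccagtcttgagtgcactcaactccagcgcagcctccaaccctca
Hba-a1: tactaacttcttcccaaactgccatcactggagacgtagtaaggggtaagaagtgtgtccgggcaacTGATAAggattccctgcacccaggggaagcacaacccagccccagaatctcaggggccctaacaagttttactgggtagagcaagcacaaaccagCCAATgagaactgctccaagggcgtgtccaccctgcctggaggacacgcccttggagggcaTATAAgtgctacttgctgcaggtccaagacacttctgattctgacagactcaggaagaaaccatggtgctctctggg

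TATAA started 28 bases before the start of Hbb-bt, 28 before that of Hba-x and 27 before that of Hba-a1, and no TATAA was found in the Hbb-y window. Both adult promoters and that of Hbb-y held CCAAT, with 3 copies in Hbb-bt and 1 copy each in Hba-a1 and Hbb-y, and the Hba-x window held 0. GATA words, of the kind bound by the erythroid factor GATA1, numbered 2 in Hba-x, 1 in Hbb-y, 1 in Hba-a1 and 0 in Hbb-bt. CCNCNCCC, of the kind bound by Krüppel-like factors such as KLF1, was found once in Hbb-bt and once in Hba-x. None of the words marked in these 4 windows overlapped another. Of 32851 promoters of this length, 24.87% held TATAA, 37.41% CCAAT, 29.76% a GATA word and 49.47% CCNCNCCC, so a match describes the letters and is no evidence of binding. Promoters were at hand for 6 of the 10 symbols looked up.

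Transcripts of red cells were present in every sorted sample of either genotype. All 4 probes of adult β-globin and those of Hba-a1, Alas2, Slc25a37, Slc4a1, Klf1 and Hbb-y were well above background on all 11 arrays, apart from the second, dimmer probe of Slc25a37, which was so on 7. The brightest adult β-globin probe ranked between 1 and 4 among 41174 probes on each array. Among other genes listed as markers of red cells, Epor was above background on 11 arrays and Gata1 on 5, and Ahsp had no probe. Adrenocortical markers were present as well, 6 of 7 of them on all 11 arrays, among them Cyp11a1, Hsd3b1, Nr5a1 and Mc2r, and Cyp21a1 was above background on 6 arrays. The sort for eGFP would leave out cells without the reporter, and the part of blood cells or of RNA carried over from them in these signals was not tested. In a mixed sample, fewer cells of a type and less RNA per cell cannot be told apart.

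Levels below are log2 processed signals minus the array's 75th percentile, a measure that sets each array's upper quartile at 0. That percentile differed widely, at 706, 544, 378 and 190 signal units on the knockout arrays and between 115 and 463 with a median of 308 on the wild-type arrays, a 6.16-fold range over all 11. Between 19071 and 26416 probes were well above background on an array. The lowest value was that of wild-type array 3, on slide 2 the sole array of its genotype. Star, checked first, had levels of 1.58, 2.59, 2.05 and 3.27 on the knockout arrays, against 3.21 to 7.86 (median 5.87) on the wild-type arrays, and knockout 4 lay just above the lowest wild-type array. Its fitted difference was −4.70 ± 0.93 (SE), with an adjusted p of 0.0559 in limma. It was past the threshold without wild-type array 4 (limma adjusted p = 0.0107) or wild-type array 6 (0.0474), and not without any other array. Over all genes, limma with slide as a term called 173 of 20741 at an adjusted p under 0.05, which is 0.834%, with 125 higher and 48 lower in the knockout. The median difference of all tested genes was −0.16. Each fitted difference between genotypes rests on slides 1 and 2, since slide 3 holds only wild-type arrays and adds only to the estimate of the spread.

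No globin or erythroid gene differed between genotypes past the threshold: 0 of the 8 tested genes were called, beside the 0.834% called among all genes. At an unadjusted p under 0.05 there were 3, Hbb-b1, Alas2 and Slc25a37, where 18.5% of all genes reached that mark. The groups overlapped for all 9 genes, while 7.36% of all genes had groups that did not overlap. The fitted difference was below 0 for 8 of the 9, all but the untested Hba-x, against 57.0% of all genes, and the median over the 9 was −0.53. That lean depended on slide 2 and on the fit, since the median was 0.029 without a slide term and −0.020 with array weights. Within slide 1, where each genotype has 2 arrays, 5 of 9 were below 0 with a median of −0.15 (all genes −0.06). Within slide 2, where male knockout mice meet 1 female wild-type mouse, all 9 were below 0 with a median of −1.71 (all genes −0.33). Without wild-type array 3, the fitted differences were those of slide 1 alone and their median was −0.15.

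**Figure D1:**
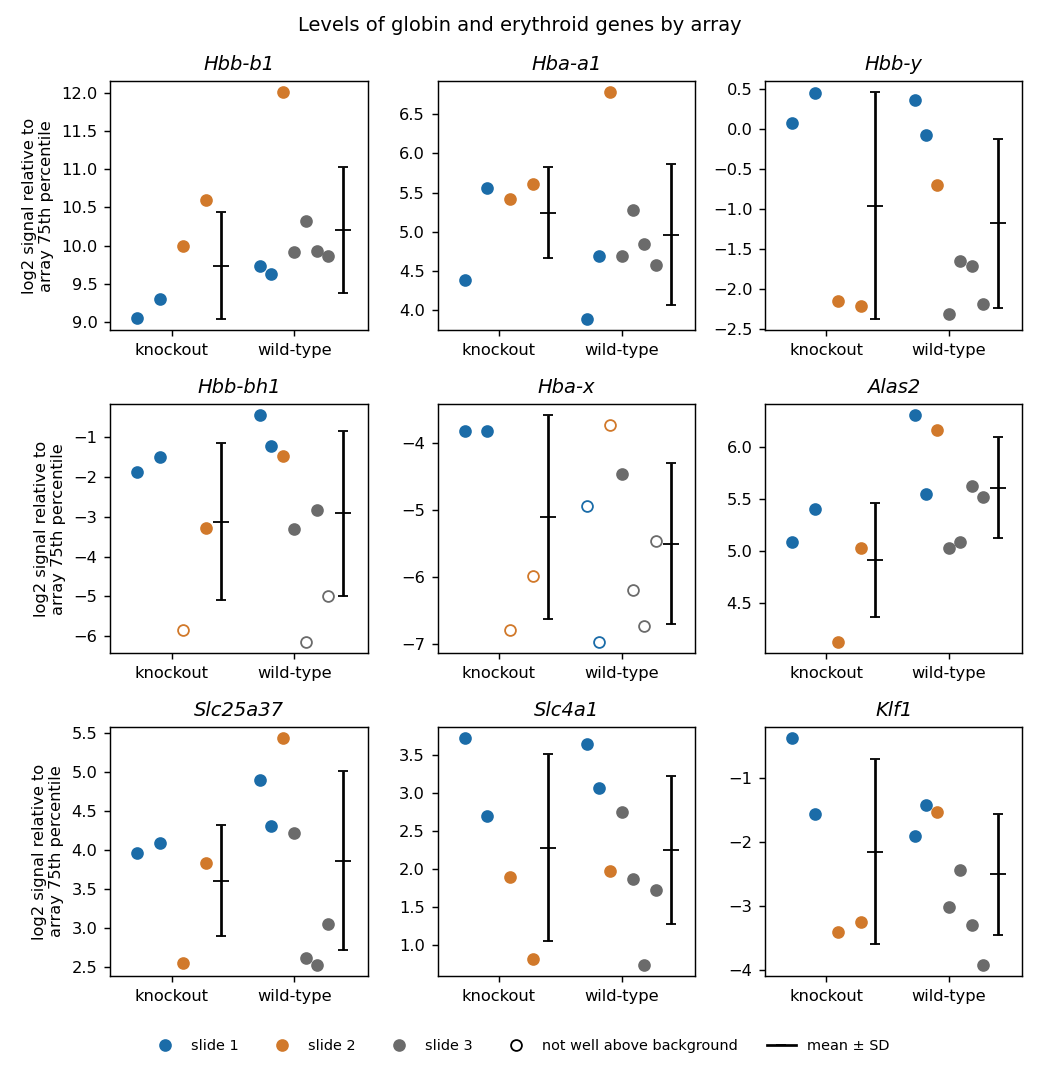
Levels of the 9 genes by array (brightest probe of each gene), as log2 signal relative to the array's 75th percentile, with the 4 knockout arrays left of the 7 wild-type arrays. Colours give the slide, open circles mark probes not well above background, and bars show mean ± SD. The groups overlap in every panel. In both genotypes, the slide 1 arrays lie above all others for Hbb-y and below all others for Hbb-b1.

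Adult globins come first. Hbb-b1 encodes the adult β chain, and its brightest probe had levels of 9.05, 9.30, 9.997 and 10.60 on knockout arrays 1 to 4, against a lowest of 9.63, a median of 9.91 and a highest of 12.01 on the wild-type arrays. Knockout arrays 1 and 2 lay below every wild-type array, and knockout arrays 3 and 4 lay among them. The means were 9.74 ± 0.70 (SD, n = 4) in the knockout and 10.20 ± 0.83 (SD, n = 7) in the wild type. The fitted difference was −0.99 ± 0.36 (SE), with a 95% interval of −1.78 to −0.19 and an adjusted p of 0.200 in limma. Within slide 1 the difference was −0.51 and within slide 2 −1.71. It was −0.056 with quantile scaling (limma adjusted p = 0.918) and −0.22 without scaling between arrays (limma adjusted p = 0.794). In these settings the medians of all genes were −0.078 and 0.61. The other 3 probes of the same accession gave −0.54, −0.57 and −0.32, so all 4 pointed down and none was called when each probe was fitted on its own. The second of the 4 was marked as an outlier spot on wild-type array 3 and has no value there. Adult β-globin genes are near-identical copies, so which copy was detected is uncertain.

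The raw brightness of that β-globin probe varied little. Its processed signal was 373856, 343819, 386204 and 294854 on the knockout arrays, against 211304 to 471779 (median 302602) on the wild-type arrays. This is a 2.23-fold range over 11 arrays, where the 75th percentile by which each array was scaled spanned 6.16-fold. The probe's highest relative level fell on wild-type array 3, which had both its highest signal (471779) and the lowest percentile. Its lowest relative level fell on knockout array 1, the array with the highest percentile, where its signal was 373856. No spot was saturated by the scanner's flag, whose lowest limit was 651062 signal units. By contrast the signal of Slc4a1 spanned 27.9-fold and that of Hbb-y 18.2-fold. Knockout array 4 and wild-type arrays 3 and 5, the 3 arrays with the lowest 75th percentile, had the 3 highest relative levels of adult β-globin. The genotype difference of this probe was −0.99 with this scaling, beside a median of −0.16 for all genes. Without scaling it was −0.22, beside a median of 0.61, because leaving out the scaling shifts all genes alike. That change therefore says nothing about this probe in particular. With quantile scaling the difference was −0.056, beside a median of −0.078.

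**Figure D2:**
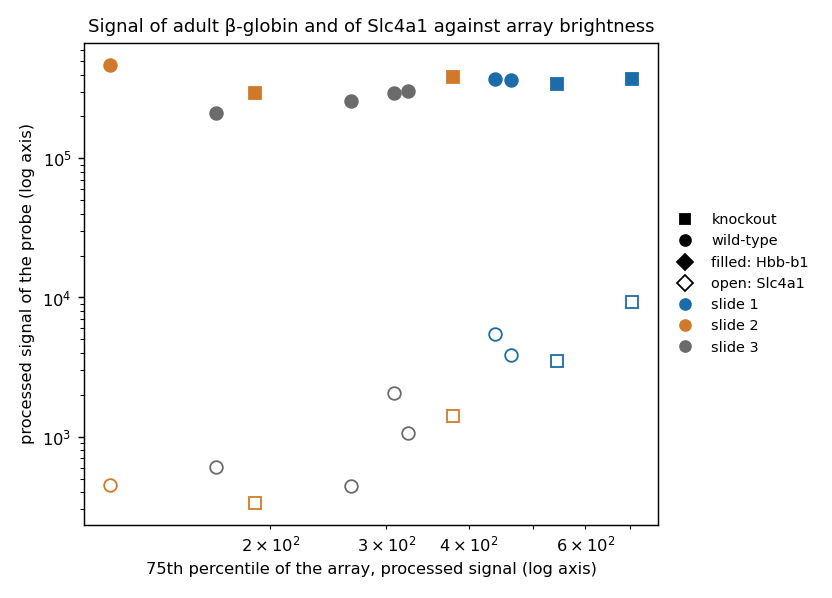
Processed signal of the brightest adult β-globin probe (filled) and of the Slc4a1 probe (open) on each array, against the array's 75th percentile, both on log axes, with squares for knockout and circles for wild-type arrays. The β-globin signal stays within a 2.23-fold range, while the percentile spans 6.16-fold and the Slc4a1 signal 27.9-fold.

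Hba-a1 encodes the adult α chain and shares nearly all of its sequence with Hba-a2, so the probe may detect both. Its levels were 4.38, 5.56, 5.42 and 5.61 on the knockout arrays, against 3.89 to 6.78 (median 4.69) on the wild-type arrays. All 4 knockout arrays lay inside the wild-type range. Fitted with slide, the difference was −0.10 ± 0.49 (SE), with a 95% interval of −1.20 to 1.01 and an adjusted p of 0.938 in limma. It was 0.68 within slide 1 and −1.26 within slide 2, so its direction depended on the slide.

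For the embryonic β-type globins the arrays separated by slide more than by genotype. Hbb-y, the embryonic ε-type chain, had levels of 0.08, 0.45, −2.15 and −2.21 on knockout arrays 1 to 4, against −2.32 to 0.37 (median −1.65) on the wild-type arrays. The 4 arrays of slide 1 lay between −0.07 and 0.45 in both genotypes, and the 7 arrays of slides 2 and 3 lay between −2.32 and −0.70. Hbb-y was the only one of the 9 genes for which all slide 1 arrays exceeded all others, a split that 3.87% of all tested genes showed. The relative level of Hbb-b1 split the other way, at 9.05 to 9.74 on slide 1 and 9.87 to 12.01 elsewhere. How many of all genes split in that direction was not counted. Between genotypes its fitted difference was −0.53 ± 0.40 (SE), with a 95% interval of −1.43 to 0.38 and an adjusted p of 0.504 in limma. Within slide 1 it was 0.11 and within slide 2 −1.49.

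Hbb-bh1, the other embryonic β-type chain, had levels of −1.87, −1.49, −5.85 and −3.28 on the knockout arrays, against −6.14 to −0.45 (median −2.82) on the wild-type arrays. Its brighter probe was well above background on 3 of 4 knockout and 5 of 7 wild-type arrays, and the values of the 3 arrays below it are only bounds. In the fit the difference was −1.74 ± 0.92 (SE), with a 95% interval of −3.81 to 0.32 and an adjusted p of 0.345 in limma. The second probe, well above background on 5 arrays, gave −0.95 ± 1.36 (SE). Within slide 1 the 2 probes differed in sign, at −0.84 and 0.50. There the second probe was not well above background on wild-type array 1 and knockout array 2, so its 0.50 rests partly on readings of background. The slide 1 arrays lay between −1.87 and −0.45 and the others between −6.14 and −1.47.

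Hba-x, the embryonic α-type chain, was well above background on 2 of 4 knockout arrays, numbers 1 and 2, and on 1 of 7 wild-type arrays, number 4. Its levels there were −3.83 and −3.83 in the knockout and −4.47 in the wild type. On the other 8 arrays it was not well above background, so it was not tested, and its value in the counts over 9 genes is mostly a reading of background.

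Setting the embryonic against the adult β chain within each array cancels the subtraction of the 75th percentile, which both probes share. Hbb-y minus Hbb-b1 was −8.97, −8.86, −12.15 and −12.81 on knockout arrays 1 to 4, against −12.70 to −9.37 (median −11.97) on the wild-type arrays. These numbers compare arrays and not amounts of the 2 transcripts, because brightness also depends on the probe. On slide 1 the values lay between −9.70 and −8.86, and on slides 2 and 3 between −12.81 and −11.64, with medians 2.97 apart and no overlap. Hbb-bh1 minus Hbb-b1 lay between −10.92 and −10.19 on slide 1 and at −12.75 or lower elsewhere, where 3 of the 7 arrays had Hbb-bh1 not well above background and give only bounds. Both genotypes stood on both sides of that split. The slide 1 arrays were also the 4 brightest, with 75th percentiles of 706 and 544 (knockout) and 438 and 463 (wild type) and at most 378 elsewhere, and the Hbb-b1 signal varied little. The contrast therefore follows the raw Hbb-y signal, 41.0 to 85.1 on the other slides and 441 to 744 on slide 1, and the part of array brightness in it was not tested. The 4 arrays of slide 1 are all male, but knockout arrays 3 and 4 and wild-type array 7 are male too and lay with the others. Embryo age is not given per sample, so its part, and that of anything else that differed between slides, cannot be told apart from the slide.

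The embryonic to adult balance was then compared between genotypes, by an exact permutation test that cannot reach the threshold of 0.05 at this size. The slide-adjusted difference in Hbb-y minus Hbb-b1, knockout minus wild-type, was 0.46, with 0.62 within slide 1 and 0.22 within slide 2, and p = 0.167 in a two-sided exact permutation test within slides. With 18 arrangements the smallest p that this test allows is 0.0556. On slide 1 both knockout arrays exceeded both wild-type arrays, and on slide 2 wild-type array 3 lay between the 2 knockout arrays. With normexp background the contrast was 0.45, at the smallest p the test allows (0.0556, exact permutation), with 0.47 within slide 1 and 0.41 within slide 2. Quantile scaling, which does not keep the difference of 2 probes, turned it to −0.54. For Hbb-bh1 minus Hbb-b1 the difference was −0.75 (p = 0.278, exact permutation), −0.18 with normexp (p = 0.5, exact permutation) and −1.88 with quantile scaling (p = 0.0556, exact permutation). Knockout array 3, where Hbb-bh1 was not well above background, is among the 7 arrays of slides 1 and 2 on which that difference rests. Adjustment over the contrasts could only raise these p-values. Hba-x was too dim for the same contrast with Hba-a1.

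**Figure D3:**
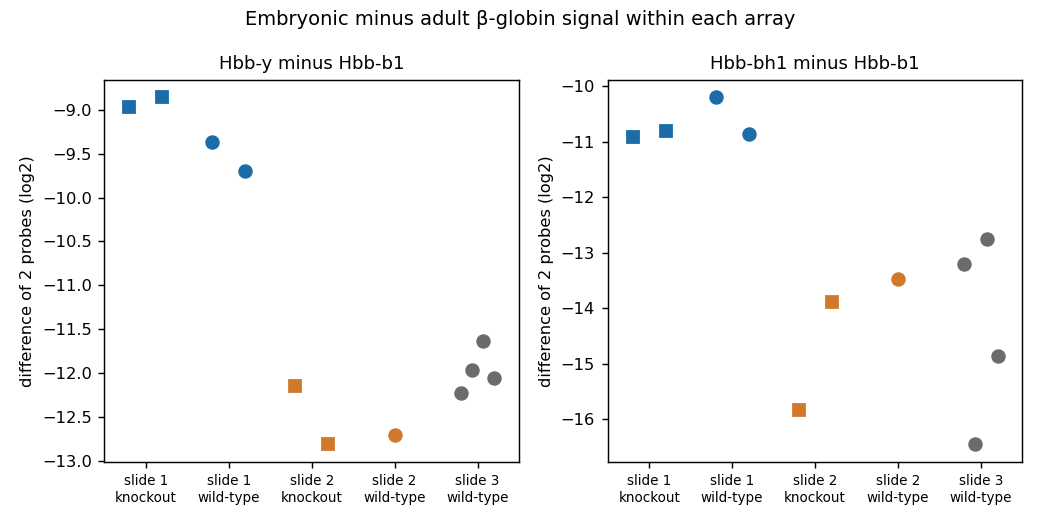
Difference between the probe of an embryonic β-type globin and that of adult β-globin within each array (log2), by slide and genotype, with knockout left of wild type. The 4 arrays of slide 1 lie between −9.70 and −8.86 for Hbb-y, apart from the 7 other arrays at −12.81 to −11.64, in both genotypes.

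Genes of haem and iron supply gave the largest fitted differences relative to their error after Hbb-b1. Alas2 encodes the erythroid form of the enzyme that starts haem synthesis. Its levels were 5.08, 5.40, 4.13 and 5.03 on the knockout arrays, against 5.03 to 6.30 (median 5.54) on the wild-type arrays. Knockout array 3 lay below every wild-type array and knockout array 4 was level with the lowest of them. Fitted with slide, Alas2 differed by −1.04 ± 0.39 (SE), with a 95% interval of −1.91 to −0.17 and an adjusted p of 0.210 in limma. It kept its direction within slide 1 (−0.68) and within slide 2 (−1.58), where the wild-type mouse is female and the knockout mice are male.

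Slc25a37 encodes mitoferrin 1, which imports iron into the mitochondria of developing red cells. Its brighter probe had levels of 3.95, 4.09, 2.55 and 3.83 on the knockout arrays, against 2.52 to 5.43 (median 4.21) on the wild-type arrays. The fitted difference was −1.25 ± 0.56 (SE), with a 95% interval of −2.49 to −0.0034 and an adjusted p of 0.269 in limma. The dimmer second probe gave −0.24 ± 0.49 (SE). Within slide 1 the brighter probe differed by −0.58 and within slide 2 by −2.24. All 4 knockout arrays lay inside the wild-type range.

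Slc4a1 encodes band 3, the anion exchanger of the red cell membrane. Its levels were 3.72, 2.69, 1.89 and 0.81 on the knockout arrays, against 0.73 to 3.65 (median 1.97) on the wild-type arrays. Knockout array 1 was the highest of all 11, and knockout array 4 lay next to the lowest. In the fit Slc4a1 differed by −0.34 ± 0.53 (SE), with a 95% interval of −1.52 to 0.84 and an adjusted p of 0.763 in limma. On slide 1 the levels ran between 2.69 and 3.72 over both genotypes, and on the other slides between 0.73 and 2.75.

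Klf1 encodes the Krüppel-like factor that drives adult β-globin and many other erythroid genes. Its levels were −0.38, −1.57, −3.41 and −3.25 on the knockout arrays, against −3.93 to −1.42 (median −2.44) on the wild-type arrays. Knockout array 1 was the highest of all 11, knockout array 2 lay beside the higher wild-type arrays, and knockout arrays 3 and 4 lay among the lower ones. The fitted difference was −0.30 ± 0.58 (SE), with an adjusted p of 0.815 in limma, and it was 0.69 within slide 1 and −1.79 within slide 2. The median of slide 1 exceeded that of the other slides for 7 of the 9 genes, the exceptions being the adult globins Hba-a1 and Hbb-b1, and for 52.3% of all tested genes.

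**Figure D4:**
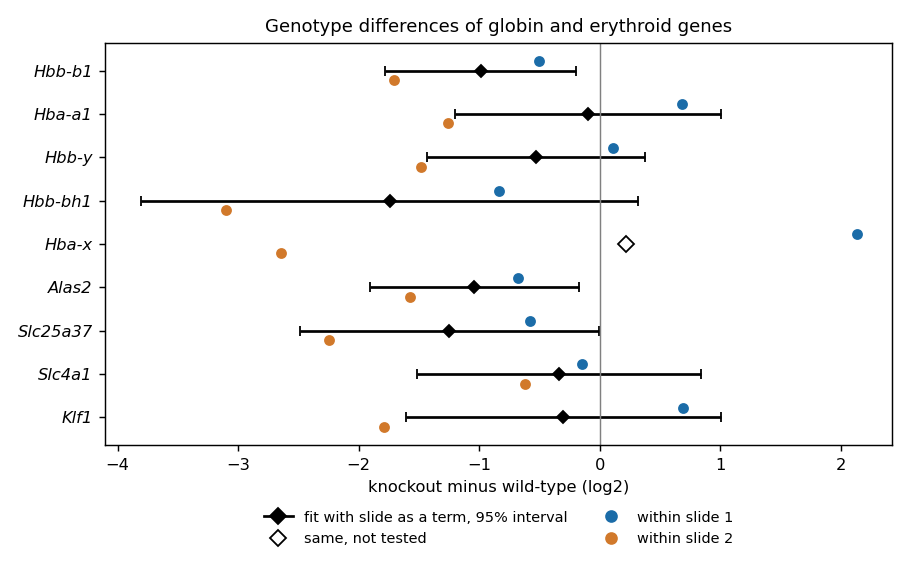
Knockout minus wild-type difference (log2) of each gene, with the fit that has slide as a term (diamonds, 95% interval), within slide 1 (blue) and within slide 2 (orange). The slide 2 differences, which rest on wild-type array 3 (a female) alone for the wild type, are all below 0, while 5 of 9 are below 0 on slide 1.

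The 28 pairs among the 8 tested genes were compared over the 11 arrays with each slide's mean removed, by exact permutation within slides. None passed after adjustment over the 28, with a lowest adjusted p of 0.435. Hbb-y and Hbb-b1 show how much the slides matter. Pearson's r was −0.30 over all 11 arrays and 0.81 within slides (exact permutation p = 0.0744, adjusted 0.435), with a Spearman's rho of 0.71 within slides (exact permutation p = 0.0758, adjusted 0.518). Without the 2 arrays farthest from the median, r within slides was 0.48. All levels on an array share its 75th percentile, which adds to such correlations.

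The genes whose levels followed a globin most closely over the 11 arrays were sought outside the 9 genes, so the globins among those could not appear. For Hba-a1 they were Snx25 (r = 0.944 over all arrays and 0.935 within slides), Rab1a (0.934 and 0.972), Snap23 (0.906 and 0.827) and 2 unnamed probes, among 20690 compared. For Hbb-y they were Pdcl2 (0.970 and 0.820), Olfr1328 (0.968 and 0.850), Lce1a1 (0.968 and 0.773), Muc5ac (0.967 and 0.893) and 1 unnamed probe. These values describe the arrays, which share slide and scaling, and were not tested.

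Genes of the wider red cell programme, from other globins to iron storage, were not called either. Their list medians stand beside −0.16 for all genes, and only that of haem synthesis was below 0 within slide 1, at −0.03, where the other 5 ran between 0.11 and 0.51. Among other globins, 0 of 4 tested genes were called in either direction, with a median difference of −0.29. Cygb, a globin of fibroblasts and other tissue cells, averaged 2.22 ± 0.93 in the knockout and 1.21 ± 0.66 in the wild type (SD, n = 4 and 7), a fitted 1.58 ± 0.42 (SE; limma adjusted p = 0.114). Hbq1a and Hbq1b, θ-type α-globin genes that are near-identical copies, differed by −1.41 and −0.70, and Ngb, the globin of neurons, by 0.11. Of the haem synthesis genes 0 of 10 were called, with a median of −0.36. The lowest p there was that of Fech, which inserts iron into the porphyrin ring, at −1.47 ± 0.58 (SE; limma adjusted p = 0.226). Its groups did not overlap, which held for 7.36% of all genes. They ran from 2.34 to 2.69 in the knockout and from 2.75 to 5.84 in the wild type. Within slide 1, however, Fech differed by only −0.19. Urod and Cpox, enzymes of the steps before it, differed by −0.71 and −1.09 (−0.19 and 0.56 within slide 1), and Tmem14c, a carrier of the same pathway, by 0.37.

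Of the erythroid transcription factors 0 of 10 were called, with a median of 0.09. Lmo2, part of the complex of TAL1 and GATA1, was above background on all 4 knockout arrays and on 3 of 7 wild-type arrays, at 1.73 ± 0.87 (SE; limma adjusted p = 0.320). Ldb1, its partner, differed by 0.94 (0.31 within slide 1), Ikzf1 by 1.15 (0.71 within slide 1) and Myb, the factor of early progenitors, by −1.07. Among genes of the red cell membrane and skeleton 0 of 15 were called, with 12 below 0 (57.0% among all genes) and a median of −0.76, which was 0.20 within slide 1 and −0.99 within slide 2. Ank1, the ankyrin that ties band 3 to spectrin, averaged −0.95 ± 1.14 in the knockout and 0.59 ± 1.38 in the wild type (SD, n = 4 and 7), a fitted −2.44 ± 0.79 (SE; limma adjusted p = 0.162), with −1.34 within slide 1 and −4.09 within slide 2. The skeleton genes Epb41 and Sptb differed by −0.76 and −1.57 and Tmod1 by 2.05.

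Of the maturation genes and red cell enzymes 0 of 15 were called, with a median of −0.17. The 3 with the lowest p had groups that did not overlap, which held for 7.36% of all genes. They kept their direction on both slides, Mns1 with −0.96 within slide 1 and −3.38 within slide 2. Blvrb, a biliverdin reductase abundant in red cells and also made elsewhere, averaged 4.75 ± 0.19 in the knockout and 3.15 ± 0.49 in the wild type (SD, n = 4 and 7; limma adjusted p = 0.106). Epor, the erythropoietin receptor, averaged 2.47 ± 0.32 in the knockout and 0.08 ± 0.87 in the wild type (SD, n = 4 and 7; limma adjusted p = 0.122). Mns1 averaged 0.91 ± 0.81 in the knockout and 3.24 ± 0.65 in the wild type (SD, n = 4 and 7, limma adjusted p = 0.123). It stood in the list by name, and nothing here shows a part for it in red cells. Bpgm, which makes the bisphosphoglycerate that loosens oxygen from haemoglobin, differed by −0.69.

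Of the genes of iron uptake and storage 0 of 10 were called, with a median of −0.27. Slc48a1, a transporter that brings haem out of lysosomes, averaged 3.88 ± 0.26 in the knockout and 2.36 ± 0.45 in the wild type (SD, n = 4 and 7; limma adjusted p = 0.107), with a difference of 0.95 within slide 1 and 2.28 within slide 2. Ftl1, the ferritin light chain, lay between 6.67 and 7.04 in the knockout and between 0.75 and 6.22 in the wild type, a fitted 2.91 ± 0.90 (SE; limma adjusted p = 0.147). It differed by 0.82 within slide 1, which is the value without wild-type array 3, and by 6.04 within slide 2. Tfrc, the transferrin receptor, lay between −0.40 and 0.09 in the knockout and between −2.08 and −0.58 in the wild type, a fitted 1.16 ± 0.46 (SE; limma adjusted p = 0.231). Glrx5, needed for iron-sulfur clusters, differed by −0.67.

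The one list with a call was that of haemoglobin and iron recycling by macrophages, the cells that clear old red cells, with 1 of 8 called higher (0.603% of all genes) and 0 lower. Slc11a1 (NRAMP1), an iron and manganese transporter of the phagosome, lay between 4.68 and 5.55 in the knockout and between −2.45 and 2.07 in the wild type, a fitted 4.88 ± 0.90 (SE; limma adjusted p = 0.0468). It was 2.83 within slide 1 and 7.96 within slide 2. The call was lost when any of 10 of the 11 arrays was left out, and without wild-type array 3 the difference was 2.83 (limma adjusted p = 0.202). With sex as a further term, all knockout mice being male, it was 4.13 (limma adjusted p = 0.159), and with the replicate number as a block 5.08 (limma adjusted p = 0.0656). All 8 genes of that list had an unadjusted p under 0.05 (limma), a mark that 18.5% of all genes reached. Their median difference was 2.34, and 7 were higher in the fit. Cd163, the haemoglobin scavenger receptor, was at −4.06, with −6.56 within slide 1, −0.32 within slide 2 and overlapping groups. Hmox1, which opens the haem ring, differed by 2.94, the iron exporter Slc40a1 by 2.25 and the receptor Lrp1 by 2.41. Each had groups that did not overlap (7.36% of all genes) and a limma adjusted p of 0.113 to 0.122. Without wild-type array 3, that is within slide 1, these differences were 1.70, 1.21 and 1.19, and within slide 2 they were 4.80, 3.81 and 4.23.

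Levels of markers of other cells are given beside these values, and none of these markers was called. The mean level over 8 macrophage markers ran between 4.68 and 5.47 on the knockout arrays and between 0.72 and 3.54 on the wild-type arrays, with all 8 above background on every array and a median difference of 2.54. All 8 had an unadjusted p under 0.05 (limma), beside 18.5% of all genes. Csf1r, Cd14, Lyz2 and Adgre1 had the lowest p, with differences of 2.69, 3.02, 2.30 and 2.60, and of 1.75, 2.29, 1.55 and 1.97 within slide 1. The mean over 9 platelet markers ran between −1.76 and 1.80 in the knockout and between −2.08 and 2.80 in the wild type. In that list Itgb3, Pf4 and Gp1bb had the lowest p, with differences of −1.26, −0.82 and −0.43. The mean over 6 chromaffin markers ran between −2.02 and 0.35 in the knockout and between 0.49 and 4.54 in the wild type, led by Pnmt at −5.54. The mean over 6 endothelial markers overlapped, between 0.73 and 1.72 in the knockout and between −0.16 and 2.57 in the wild type. That over 7 adrenocortical markers ran between 1.70 and 3.22 in the knockout and between 1.08 and 4.68 in the wild type. The part of these cell types in the levels of the haem, iron and erythroid genes, several of which macrophages also express, was not tested.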

How the data were processed

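Amplified, Cy3-labelled RNA of 11 mice was hybridised to 1-colour Agilent mouse arrays, per the labels. The scanner output deposited for each array lists spot intensity values; its processed signal had its background subtracted in Agilent Feature Extraction, per the file headers (version 10.1.1.1 on slides 1 and 2, 10.5.1.1 on slide 3). The submitters' processing notes name only version 10.5.1.1. A table of log2 values deposited by the authors served as an alternative.

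Of 45018 spots an array, 43379 were not controls, and 77 to 164 were left out as outliers. Log2 processed signals were averaged over the spots of a probe, and the array's 75th percentile over 41174 probes was subtracted. Probes were named through their accession and RefSeq symbols (GRCm38.p6), for 25377 probes. The files name no build, so probes were named by accession and not by position, and coordinates are given only for the promoter windows. Each gene stands for its probe of highest mean level.

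The comparison of genotypes used limma 3.58.1 (R 4.3.3; lmFit and eBayes with terms for genotype and slide, leaving 7 residual degrees of freedom), two-sided, adjusted by Benjamini-Hochberg across the 20741 genes tested, with a threshold of 0.05. These p-values measure the spread between arrays, each from a different mouse, and the number of arrays limits their precision. Embryonic minus adult contrasts and relations between genes were tested by exact permutation within slides in Python 3.11.15 (numpy 2.4.6, pandas 2.3.3, scipy 1.17.1), and figures drawn with matplotlib 3.10.9. The lists and the 9 genes were chosen with earlier results of these data known. Besides Star and the 9 genes, the named genes were up to 4 of each list with the lowest p and the 5 most like Hba-a1 and Hbb-y; Cyp11a1, Cyp21a1 and Gata1 were named as markers and Cd163 after its value was seen. Results for some list members are not reported here. On simulated data over 20690 genes with this design, the fit called 0% of changes of 2-fold, 16% at 4-fold and 62% at 8-fold, with 3 false calls. Alternatives concerned slide, sex, replicate number, background (normexp, offset 50, on median spot signals), scaling, filters, probes, the series table, the variance prior, weights for arrays, outlier spots and leaving out each array.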

Additional observations from a re-analysis of the deposited data

Results flagged for a closer look

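Within a genotype, 3 of 26 groups of levels held an array farther from the others than Dixon's critical value allows, and chance flags about 1 in 20 groups. The Hbb-b1 level of 12.01 on wild-type array 3 stood above the other 6 wild-type arrays. That array had the lowest 75th percentile and also the highest signal of this probe. The Hba-a1 level of 4.38 on knockout array 1 stood below the other 3 knockout arrays, on the array with the highest 75th percentile. The Slc25a37 level of 2.55 on knockout array 3 stood below the other 3 knockout arrays.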

How the results depend on the processing

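The count of called globin and erythroid genes was 0 under every alternative run. The median difference of the 9 genes, −0.53 in the design used, was −1.71 on slide 2 alone and 0.24 without scaling between arrays, a setting chosen after seeing the data that moved the median of all genes to 0.61. It was 0.029 without a slide term (5 higher, 4 lower), −0.020 with array weights, −0.17 with a random block and −0.25 with sex. Hbb-b1, −0.99 in the design used, was −0.056 with quantile scaling and −0.22 without scaling, a setting that shifts all genes alike. With each array left out in turn the median of the 9 genes ran between −0.85 and −0.15, and Hbb-b1 between −1.17 and −0.51. In a check of pairing, same-numbered arrays had correlations of 0.183, 0.218, −0.00764 and 0.185, and arrays of unlike number ran from −0.367 to 0.265. The arrays numbered 1, 2 and 3 also share a slide, so the check cannot settle whether replicate numbers pair the samples. With the replicate number as a block in place of slide, 177 genes were called, the median of the 9 was −0.58, Hba-a1 turned to 0.23 and Hba-x to −0.076.

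Other directions turned as follows. Without a slide term the values were Hbb-y 0.22, Hba-a1 0.28, Slc4a1 0.029 and Klf1 0.36, with slide as a random block Hba-a1 0.12 and Klf1 0.025, and with sex as a further term Hba-a1 0.27 and Klf1 0.31. Slide 1 alone gave Hbb-y 0.11, Hba-a1 0.68 and Klf1 0.69, and slide 2 alone gave Hba-x −2.65. Normexp gave Hba-a1 0.13 and Hba-x −0.28, and quantile scaling gave Hba-a1 0.20 and the Hbb-y minus Hbb-b1 contrast −0.54. Array weights gave Hba-a1 0.22, Slc4a1 0.13 and Klf1 0.81. No scaling, which shifts all genes alike, gave Hbb-y 0.24, Hba-a1 0.67, Slc4a1 0.43 and Klf1 0.47. Leaving out single arrays moved Hba-x between −0.76 and 2.13, Hbb-y between −0.80 and 0.11, Hba-a1 between −0.58 and 0.68, Klf1 between −0.85 and 0.69, and the Hbb-y minus Hbb-b1 contrast between 0.34 and 0.62. Over the 8 tested genes, 27 of these values turned and 197 kept their direction and were not called; the cause was not tested. The values of Hba-x are mostly untested readings of background. Slc11a1 was no longer called with sex, the replicate block, median scaling (adjusted p = 0.0589), no filter, every probe on its own or either slide alone.

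Counts over all genes, 173 in the design used, were 594 without a slide term, 469 with a random block, 28 with sex, 0 on slide 1 alone (3857 at an unadjusted p under 0.05), 0 on slide 2 alone (7489), 624 with normexp, 92 with median scaling, 403 above background on all 11 arrays and 2315 with array weights, and ran between 10 (wild-type array 3 left out) and 565 (wild-type array 4 left out) with single arrays removed. Without scaling, 171 of 178 calls were higher in the knockout, against 125 of 173. The highest weight was 5.76 (knockout array 1) and the lowest 0.151 (wild-type array 3). The single-slide fits have 2 and 1 residual degrees of freedom. Dim probes limit Hba-x and Hbb-bh1, and 2-fold changes were not called in simulated data.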
